A study of Mus musculus with 6 samples.

Results

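The expression of 8 genes of the heterochronic let-7 pathway was described in mouse motor neuron progenitors: Lin28a, Lin28b, Hmga1, Hmga2, Igf2bp1, Igf2bp2, Igf2bp3 and Trim71. The genes were listed by name for their place in the pathway, by a rule that uses no measured value. Earlier results of these data were known when they were chosen. The genes were matched by symbol to the Ensembl identifiers of the deposited table. They are 8 of the 55400 genes in that table, and all 8 were among the 12199 genes tested, those with a mean of at least 1 FPKM (fragments scaled to exonic length and to the library's total count) over the libraries. Polyadenylated RNA was sequenced in 6 libraries, 3 labelled control and 3 labelled Setd5sh. Both groups were C57BL/6 mouse embryonic stem cells, kept before differentiation on mitotically inactivated embryonic fibroblasts, and both carry the genotype label WT. They were grown as embryoid bodies from 500 cells each, received 1 µM all-trans retinoic acid and 0.5 µM SAG, a Sonic hedgehog agonist, from day 2, and were harvested on day 4. The protocol gives 1 µg/mL doxycycline 36 hours before harvest in the same words for both groups. The form of the name Setd5sh is that of a short hairpin RNA against Setd5, a gene of the SET domain family, but this is not written out in the labels. Details of the construct, the number of clones and what the control cells carried were not given in the sources used here. Replicates are not described as separate cultures, and p-values here therefore cover the spread between these libraries alone, which may be technical.

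Heterochronic genes set when a cell lineage moves from an early to a late program. The RNA-binding proteins LIN28A and LIN28B bind precursors of the let-7 microRNAs and block their maturation, while mature let-7 pairs with sites in the 3′ untranslated regions (3′ UTRs) of both Lin28 mRNAs and lowers them, so that each side restrains the other. Hmga1, Hmga2, the Igf2bp genes and Trim71 are let-7 targets that are high in early embryonic tissue. In the developing neural tube Lin28 is known for its high level in early progenitors and its fall as they mature.

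The let-7 family is defined by its seed, bases 2 to 8 of the mature RNA. In the RefSeq annotation of GRCm38.p6, 11 distinct mature sequences carry the seed GAGGUAG, of which 9 are named let-7. A set of 3 is shown with the seed in capitals, because every target site described here pairs with those bases.
mmu-let-7a-5p: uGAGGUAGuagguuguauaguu
mmu-let-7b-5p: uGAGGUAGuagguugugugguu
mmu-let-7g-5p: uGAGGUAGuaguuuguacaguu

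LIN28 is known to recognise a GGAG motif in the loop of let-7 precursors. The hairpins searched were Mir98 and those with a gene symbol that starts with Mirlet7. The motif lay between the arms of 9 of these 12 hairpins and was not found there in Mir98, Mirlet7b and Mirlet7c-2. Mir7k and Mir1961, whose mature RNAs also carry the seed, were not searched. A hairpin with the motif, Mirlet7g at chr9:106178840-106178927 on the plus strand, and a hairpin without it, Mirlet7b at chr15:85707319-85707403 on the plus strand, are shown with GGAG in capitals.
Mirlet7g: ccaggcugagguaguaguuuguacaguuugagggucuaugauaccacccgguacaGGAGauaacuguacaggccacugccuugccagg
Mirlet7b: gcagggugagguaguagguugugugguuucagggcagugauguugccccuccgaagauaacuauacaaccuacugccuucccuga
The let-7 RNAs themselves were not measured. The table lists 11 let-7 precursor genes, and 10 of them were at 0 in all 6 libraries, with 2 reads in all for the remaining gene. Selection of polyadenylated RNA does not capture processed microRNAs, so these counts carry no information on let-7 levels.

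The complement of the seed, CTACCTC, was searched on the sense strand of the annotated 3′ UTRs (GENCODE M21, mm10). Each of the 8 genes held at least 1 match, 21 in all, and 13 of the 21 were followed by A, the form of site usually counted as the strongest. Lin28b, Hmga2, Igf2bp1 and Trim71 held 4 each, Lin28a held 2, and Hmga1, Igf2bp2 and Igf2bp3 held 1 each. Among the 10773 tested genes with an annotated 3′ UTR, 1142 (10.6%) held a match and 10 (0.0928%) held 4 or more, with 4 of the described genes among these 10. In Trim71 all 4 matches were followed by A, which was the case in 3 tested genes (0.0278%). The genes were listed as let-7 pathway genes, so the matches are not independent of the choice. The 3′ UTRs were also long, from 1183 bases in Hmga1 to 6337 in Igf2bp1, against a median of 1167 over the tested genes, and a longer window holds more matches of any motif. The sites below, with the match in capitals, are the match nearest the stop codon in Lin28a, Lin28b, Hmga2, Igf2bp1 and Trim71, and the single match of Hmga1, which is not followed by A.
Lin28a, chr4:134005189-134005210, minus strand: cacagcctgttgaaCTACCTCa
Lin28b, chr10:45381022-45381043, minus strand: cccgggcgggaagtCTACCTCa
Hmga2, chr10:120364224-120364245, minus strand: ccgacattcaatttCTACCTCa
Igf2bp1, chr11:95961778-95961799, minus strand: ctgtgcgaagtaaaCTACCTCa
Trim71, chr9:114512472-114512493, minus strand: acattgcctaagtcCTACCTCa
Hmga1, chr17:27563278-27563299, plus strand: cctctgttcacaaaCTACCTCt
The seed of miR-125, the vertebrate relative of the worm timing microRNA lin-4, had a match in 4 of the genes, Lin28a, Lin28b, Trim71 and Igf2bp3, against 15.6% of tested genes. A match is a run of letters and does not show that the site is used.

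**Figure D1:**
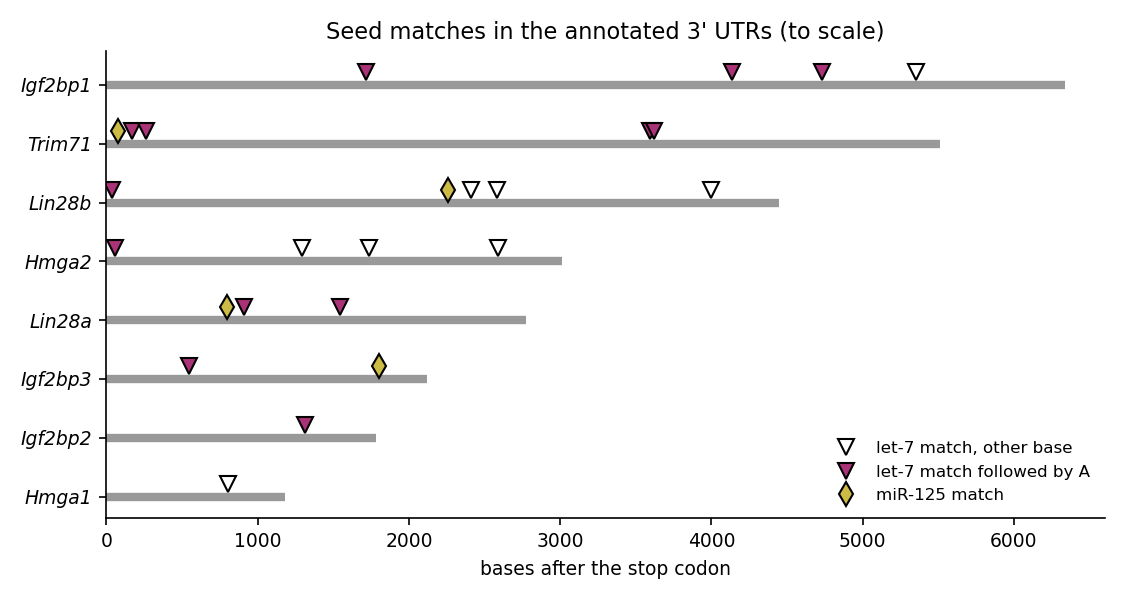
Positions of let-7 and miR-125 seed matches in the annotated 3′ UTR of each gene, with the distance from the stop codon in bases on the horizontal axis and the UTR drawn to scale as a grey bar. Filled triangles are let-7 matches followed by A, open triangles are other let-7 matches and diamonds are miR-125 matches. Igf2bp1, Trim71, Lin28b and Hmga2 each carry 4 let-7 matches, and in Lin28b and Hmga2 only the match nearest the stop codon is followed by A.

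Counts summed to between 19639303 and 32046466 per library. Setd5 was at 22.2, 18.8 and 16.7 FPKM in control replicates 1, 2 and 3 and at 14.4, 13.5 and 12.9 FPKM in the Setd5sh replicates, so every Setd5sh library was below every control. The log2 fold change was -0.51 (SE 0.16, edgeR quasi-likelihood p = 0.0143, adjusted p = 0.995, exact permutation p = 0.1, the smallest that 3 against 3 allows), and 2.14% of tested genes were separated in this direction. Control replicate 1 stood apart from the other libraries. Its median correlation with them was 0.951, against 0.972 to 0.983 for the other 5. Its deviation from the mean of all libraries correlated with transcript GC content across genes at -0.61, against -0.15 to 0.49 elsewhere; its median deviation was 0.61 (log2) in genes at or below the lower quartile of GC and -0.30 in those at or above the upper quartile. Lin28b, at 40.6% GC, is the lowest of the 8 genes (percentile 7.33 of the tested genes), and Hmga1, at 61.4%, the highest (percentile 97.4). On the log2 scale control replicate 1 exceeded the mean of the other 5 libraries by 1.27 for Lin28b, while for Hmga1 the difference was -0.63 and for Igf2bp1, at 50.8% GC, -0.54. Where leaving that library out turned a direction or moved a value by a large factor, the value without it is given beside the result.

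**Figure D2:**
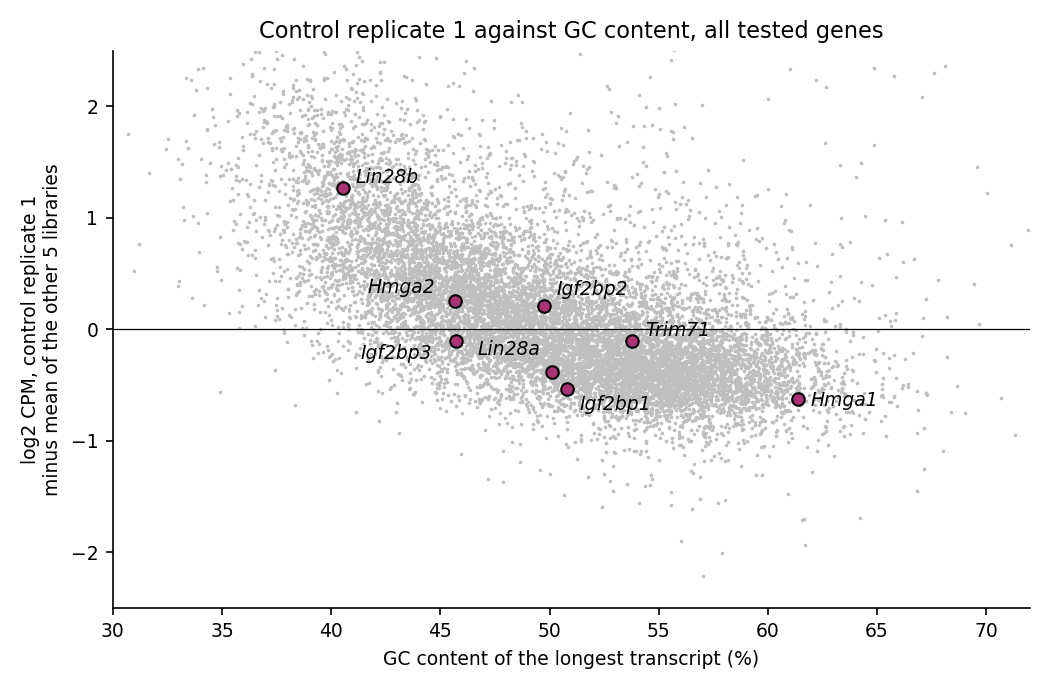
Difference in log2 CPM (counts scaled to the library total) between control replicate 1 and the mean of the other 5 libraries, against the GC content of the longest transcript in percent. Grey points are 12124 tested genes (66 lie outside the axes) and the 8 described genes are labelled. Lin28b lies at 1.27 among low-GC genes and Hmga1 at -0.63 among high-GC genes, both within the cloud of genes of like GC content.

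All 8 genes were expressed in day 4 progenitors of both groups, and none passed the test between Setd5sh and control. The lowest count of any of them in a library was 1525 reads, for which the counting error is 2.56%, which is smaller than the spread between libraries described below for each gene. At an adjusted p under 0.05, 0 of the 8 genes and 0 of 12199 tested genes (0%) passed in edgeR. At an unadjusted p under 0.05, 149 genes (1.22%) and none of the 8 passed in edgeR, and DESeq2 gave 0 genes adjusted and 221 unadjusted. Unadjusted p-values of the 8 genes lay between 0.206 and 0.806, and their adjusted p was 0.995 in each case. The log2 fold change was positive in 5 and negative in 3, with a median of 0.09 against -0.04 over all tested genes. By FPKM, Hmga1, Hmga2, Igf2bp1 and Igf2bp3 were higher in Setd5sh in all 3 same-numbered pairs, as were 12.8% of tested genes. None of the 8 was lower in all 3 by FPKM, against 12.1%. For Trim71 this turned on a near-tie in pair 1, where Setd5sh was 100.05% of control. With the TMM library scaling of the main edgeR fit, Trim71 CPM was lower in every pair. Setd5sh replicates 1, 2 and 3 then gave 199.1, 240.7 and 193.5, against 204.4, 245.1 and 223.4. Hmga1 in pair 3 was also close by FPKM, at 101.1%, and stayed higher with that scaling. In bulk RNA, fewer cells of a type and less RNA per cell cannot be told apart.

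Per length of exon, the 8 genes ranked in a similar order in all libraries. Hmga1 was the most abundant, at percentile 99.5 of the tested genes by mean FPKM, followed by Lin28a at 98.0 and Igf2bp1 at 95.4, and these were ranked the same way in 6 of 6 libraries with no overlap of their ranges. Igf2bp2, Igf2bp3, Trim71 and Hmga2 followed at percentiles 81.3, 81.1, 80.1 and 76.4, and over the 6 libraries the ranges of neighbours in that order overlapped. Lin28b was lowest, at percentile 63.7, and lay below Hmga2 in 5 of 6 libraries, the exception being control replicate 1.

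**Figure D3:**
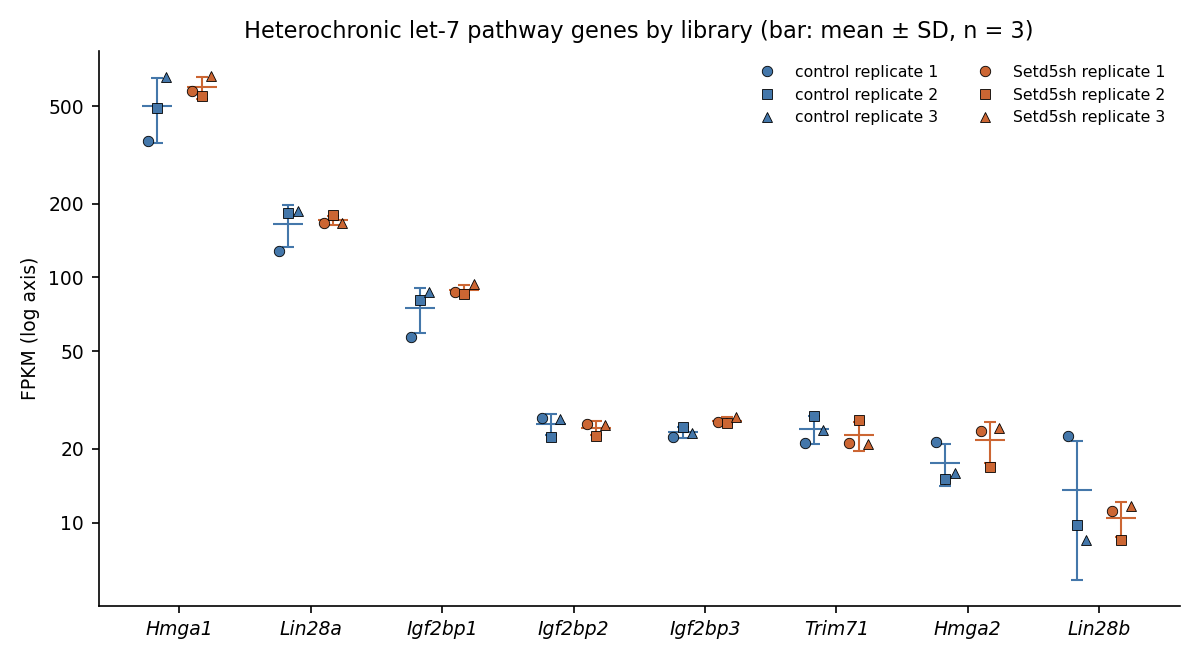
FPKM of each gene in each library on a log axis, with genes ordered by their mean level. Blue marks are control and orange marks Setd5sh libraries, the symbol gives the replicate number, and bars give the mean ± SD of 3 libraries. Hmga1, Lin28a and Igf2bp1 are apart from the rest, and control replicate 1 is the lowest mark for those 3 genes and the highest for Lin28b.

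Of the 2 genes for the RNA-binding proteins that block let-7 maturation, Lin28a had the higher mRNA level per length of exon. Lin28a (ENSMUSG00000050966, chr4:134003330-134018841, minus strand) was at 128.65, 183.14 and 185.84 FPKM in control replicates 1, 2 and 3 and at 166.75, 179.99 and 166.96 FPKM in the Setd5sh replicates. Control replicate 1 was the lowest of the 6, and the Setd5sh values lay within the control range. The means were 165.9 ± 32.3 and 171.2 ± 7.58 FPKM (SD, n = 3 each), with a log2 fold change of 0.04 (SE 0.17, 95% interval -0.34 to 0.42, edgeR p = 0.806, exact permutation p = 1). Without control replicate 1 the sign turned, to -0.08, and without control replicate 3 it was 0.14.

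Lin28b (ENSMUSG00000063804, chr10:45376620-45486395, minus strand) encodes the related protein. It was at 22.61, 9.78 and 8.47 FPKM in the control libraries and at 11.20, 8.51 and 11.68 FPKM in Setd5sh. A single value, that of control replicate 1, was 2.28 times the mean of the other 5, which lay within a narrow range. The log2 fold change was -0.41 with the widest interval of the 8 genes, -1.29 to 0.48 (SE 0.38, edgeR p = 0.321, exact permutation p = 0.9). Without control replicate 1 it was 0.23 (edgeR adjusted p = 0.997), and in a fit with the replicate number as a block, after each library's trends on GC content and length were taken out, it was 0.02 (SE 0.08, edgeR adjusted p = 0.952). Leaving out any 1 of the other 5 libraries kept the sign negative, from -0.23 without Setd5sh replicate 2 to -0.66 without control replicate 3.

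The balance of the pair was read as the ratio of Lin28a to Lin28b FPKM within a library. It was 5.69, 18.7 and 21.9 in control and 14.9, 21.2 and 14.3 in Setd5sh. Control replicate 1 was again apart, and the remaining 5 ratios of the groups overlapped. The log2 difference was 0.32 (exact permutation p = 0.9, adjusted 0.9 over 5 ratios), and without control replicate 1 it was -0.30. The summed FPKM of the pair was 179.5 ± 24.5 in control and 181.7 ± 5.90 in Setd5sh (SD, n = 3 each, exact permutation p = 1). Without control replicate 1 the direction turned, with a control mean of 193.6 FPKM against 181.7 FPKM in Setd5sh.

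Over the 6 libraries, the tested genes with log2 CPM most like Lin28a by Pearson correlation were Wdr91 (r = 0.9997), Clpb (r = 0.9992) and Uchl1 (r = 0.9990). Those most like Lin28b were Rims2, Srsf10 and Gm32856, each at r = 0.998 or above. With 6 points of which control replicate 1 is the extreme, such values are common: 1028 tested genes exceeded 0.9 with Lin28a and 1719 with Lin28b. Srsf10, for example, was at 58.12 FPKM in control replicate 1 and between 21.79 and 31.37 FPKM in the other libraries.

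Among the targets, the HMGA proteins are architectural chromatin factors that bind the minor groove of AT-rich DNA, and Hmga2 is the classical let-7 target. Hmga2 (ENSMUSG00000056758, chr10:120361275-120476469, minus strand) was at 21.33, 15.06 and 15.96 FPKM in the control libraries and at 23.57, 16.93 and 24.37 FPKM in Setd5sh. Each Setd5sh library was above its same-numbered control, but control replicate 1 was above Setd5sh replicate 2, so the groups overlapped. The means were 17.5 ± 3.39 and 21.6 ± 4.08 FPKM (SD, n = 3 each), with a log2 fold change of 0.30 (SE 0.22, 95% interval -0.21 to 0.80, edgeR p = 0.218, exact permutation p = 0.2). Without control replicate 1 it was 0.51 (edgeR adjusted p = 0.997, with the unadjusted p under 0.05), and all 3 Setd5sh libraries were above both remaining controls, as in 6.66% of tested genes; 2.96% of tested genes were under 0.05 unadjusted in that fit. The blocked fit without the GC and length trends gave 0.39 (SE 0.08, edgeR adjusted p = 0.705), and no fit called it. The difference was smaller when control replicate 2 was left out (0.17), or Setd5sh replicate 3 (0.20) or Setd5sh replicate 1 (0.22), and larger when Setd5sh replicate 2 was (0.48).

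Hmga1 (ENSMUSG00000046711, chr17:27556497-27563674, plus strand) was at 358.49, 489.25 and 655.61 FPKM in the control libraries and at 575.46, 547.66 and 663.06 FPKM in Setd5sh. The control libraries spanned a wider range than the Setd5sh libraries, and the groups overlapped. The log2 fold change was 0.24 (SE 0.22, 95% interval -0.27 to 0.76, edgeR p = 0.308, exact permutation p = 0.4). Without control replicate 1 it was 0.08, without Setd5sh replicate 3 it was 0.16, and without control replicate 3 it was 0.49. In the fit without control replicate 3, the edgeR p was 0.0385 (adjusted p = 0.566), and 963 of 12199 tested genes were under 0.05 unadjusted. A near-identical copy, Hmga1b, is 99.8% identical to the Hmga1 transcript over 1602 aligned columns, so reads can be split between them. Hmga1b was at 68.26, 92.48 and 103.92 FPKM in the control libraries and at 108.63, 106.99 and 93.69 FPKM in Setd5sh, and the sum of both was 589.3 ± 166.5 against 698.5 ± 52.6 FPKM (SD, n = 3 each, exact permutation p = 0.5). Without control replicate 1 the control mean of that sum was 670.6 FPKM. The ratio of Hmga1 to Hmga2 was 16.8, 32.5 and 41.1 in control and 24.4, 32.3 and 27.2 in Setd5sh, with a log2 difference of -0.02 (exact permutation p = 0.9, adjusted 0.9). The sign and size turned on single libraries: leaving out control replicate 1 gave -0.39, while 0.25, 0.08 and 0.07 were found on leaving out control replicate 3, control replicate 2 or Setd5sh replicate 1.

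The IGF2BP proteins bind mRNAs, Igf2 among them, and affect their stability, transport and translation. Igf2bp1 (ENSMUSG00000013415, chr11:95957163-96005940, minus strand) was the most abundant of the 3 paralogs, at 57.07, 80.68 and 87.34 FPKM in the control libraries and 87.50, 85.57 and 94.05 FPKM in Setd5sh. Control replicate 1 was the low value, and control replicate 3 lay within the Setd5sh range. Its log2 fold change was 0.24 (SE 0.18, 95% interval -0.17 to 0.65, edgeR p = 0.206, exact permutation p = 0.2), the smallest unadjusted edgeR p among the 8 genes, 0.11 without control replicate 1 and 0.37 without control replicate 3.

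Igf2bp3 (ENSMUSG00000029814, chr6:49085223-49214957, minus strand) was at 22.30, 24.60 and 23.18 FPKM in the control libraries and at 25.63, 25.43 and 26.95 FPKM in Setd5sh. It was the only one of the 8 genes in which every Setd5sh library was above every control, which held for 375 tested genes (3.07%). The difference was small, 23.4 ± 1.16 against 26.0 ± 0.826 FPKM (SD, n = 3 each), with a log2 fold change of 0.15 (SE 0.12, 95% interval -0.14 to 0.43, edgeR p = 0.270, exact permutation p = 0.1, the smallest possible). It was 0.15 without control replicate 1 as well. Exons of Igf2bp3 overlap those of Malsu1 on the opposite strand, which had 302 to 534 reads per library, and the counting strand, not given in the sources used here, decides whether their reads can be told apart.

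Igf2bp2 (ENSMUSG00000033581, chr16:22059009-22163299, minus strand) was at 26.80, 22.32 and 26.57 FPKM in the control libraries and at 25.35, 22.61 and 25.09 FPKM in Setd5sh. The groups overlapped, and replicate 2 was the lowest of each. A log2 fold change of -0.06 was fitted (SE 0.15, 95% interval -0.42 to 0.29, edgeR p = 0.692, exact permutation p = 0.6). The sign turned without control replicate 1, to 0.02, and without Setd5sh replicate 2, to 0.03, and the value was -0.17 without control replicate 2. Within the family, Igf2bp1 made up 60.2% ± 5.61 of the summed FPKM in the control libraries and 63.9% ± 0.615 in Setd5sh (SD, n = 3 each), and without control replicate 1 the control mean was 63.5%.

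The ratio of Igf2bp1 to Igf2bp2 was 2.13, 3.61 and 3.29 in control and 3.45, 3.78 and 3.75 in Setd5sh. It was higher in Setd5sh in 3 of 3 pairs, but the groups overlapped (log2 difference 0.32, exact permutation p = 0.2, adjusted 0.75). Control replicate 1 was the low value, and without it the difference was 0.09. The ratio of Igf2bp2 to Igf2bp3 was 1.20, 0.907 and 1.15 in control and 0.989, 0.889 and 0.931 in Setd5sh, lower in 3 of 3 pairs (log2 difference -0.20, exact permutation p = 0.3, adjusted 0.75), and without control replicate 1 the difference was -0.12. For Igf2bp1 to Igf2bp3 the log2 difference was 0.11 (exact permutation p = 0.7, adjusted 0.9), and without control replicate 1 it was -0.04.

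Trim71 (ENSMUSG00000079259, chr9:114507133-114564369, minus strand) encodes the relative of the worm timing factor LIN-41, an RNA-binding TRIM-NHL protein. It was at 21.02, 27.21 and 23.85 FPKM in the control libraries and at 21.03, 26.27 and 20.84 FPKM in Setd5sh. Replicate 2 was the highest of each group, and replicate 1 was nearly equal in both. The log2 fold change was -0.09 (SE 0.15, 95% interval -0.44 to 0.26, edgeR p = 0.580, exact permutation p = 0.6). It was nearer 0 when control replicate 2 (-0.02) or Setd5sh replicate 3 (-0.03) was left out, and farther from it when Setd5sh replicate 2 (-0.17) or control replicate 1 (-0.14) was.

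**Figure D4:**
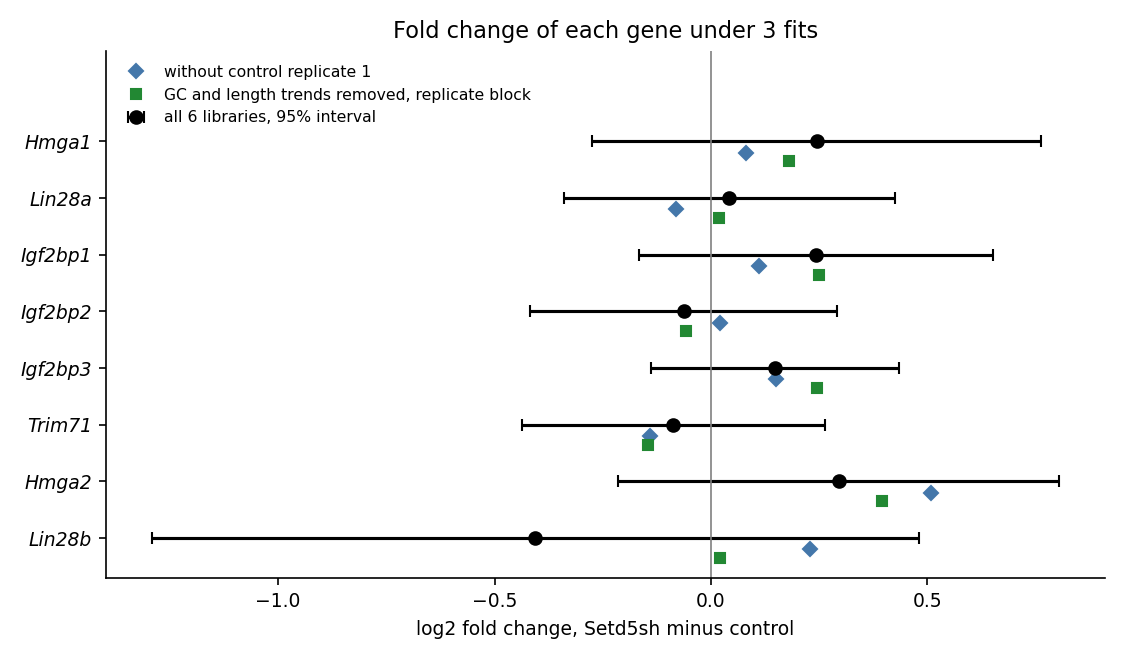
Log2 fold change of each gene, Setd5sh minus control. Black points with bars are the fit over all 6 libraries with its 95% interval, blue diamonds the fit without control replicate 1, and green squares the blocked fit without the GC and length trends. Every interval includes 0, and Lin28b moves from -0.41 to 0.23 and 0.02 in the other fits.

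Replicate 2 of both groups, where Trim71 was highest and Hmga2 and Igf2bp2 lowest, also held the most RNA of residual pluripotency genes, which mark undifferentiated stem cells. The summed FPKM of the 13 listed genes was 21.7, 94.1 and 30.9 in control and 30.5, 70.7 and 11.7 in Setd5sh. Dppa5a was at 69.37 and 52.33 FPKM in replicate 2 of control and Setd5sh and at most 25.64 FPKM elsewhere, and Pou5f1 was at 8.31 and 5.23 FPKM against at most 1.93 FPKM. Of this list 5 genes were tested, with log2 fold changes that were negative in 5 of 5 and a median of -0.47. Without control replicate 2 that median was 0.51, and without Setd5sh replicate 2 it was -1.16. Their part in the levels of Trim71, Hmga2 and Igf2bp2 was not tested.

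Markers of other cells were also read. Motor neuron progenitor markers were present in every library: Olig2, the transcription factor that specifies these progenitors, was at 65.59 to 78.70 FPKM in the control libraries and 75.71 to 115.81 FPKM in Setd5sh, and Sox2 was at 67.28 to 83.82 and 68.91 to 81.27 FPKM. All 10 genes of that list were tested, with 7 positive and 3 negative fold changes and a median of 0.36 (0.19 without Setd5sh replicate 1). Of these, 2 were higher at an unadjusted p under 0.05, Olig1 and Neurog2, against 1.22% of all tested genes, and 0 adjusted. Young neuron genes, 10 tested of 13, had positive fold changes in 10 of 10, with a median of 0.60. The smallest was 0.005 for Elavl4 and the largest 1.15 for Tubb3. Elavl4 was at 8.29, 2.58 and 3.54 FPKM in the control libraries and 5.80, 3.03 and 5.95 FPKM in Setd5sh. Its highest value was that of control replicate 1. Of the 10, 6 were at an unadjusted p under 0.05, against 1.22% of all tested genes, and 0 adjusted. Neurog2 is among these 6 and is also on the progenitor list, so the lists are not independent. Dcx, Stmn2 and Map2 had a mean under 1 FPKM and were not tested, and their group ranges overlapped. The summed FPKM of all 13 was 60.8 to 73.2 in control and 90.8 to 128 in Setd5sh. The neuronal tubulin gene Tubb3 was at 18.98, 17.29 and 26.10 FPKM in the control libraries and 53.54, 30.52 and 55.03 FPKM in Setd5sh. Feeder fibroblast and mesenchyme genes, 8 tested of 16, had 4 positive and 4 negative fold changes (median 0.17). Of the 8, 2 were higher at an unadjusted p under 0.05, against 1.22% of all tested genes. The 16 listed genes summed to 112 to 131 FPKM in the control libraries and 133 to 164 FPKM in Setd5sh. Most of that sum was Vim, which neural progenitors also express, and Fn1. Other genes of the list, named after their values were seen, were low or uneven: Postn, Dcn and Lum were at or below 0.16 FPKM in every library, Col1a2 was at 3.35 to 6.47 FPKM in the control libraries and 4.68 to 7.83 FPKM in Setd5sh, and Twist1 had a log2 fold change of 0.42. The smooth muscle actin gene Acta2 was at 2.25, 3.92 and 5.06 FPKM in the control libraries and 6.09, 4.82 and 10.11 FPKM in Setd5sh, with a log2 fold change of 0.91. In the other direction, Col1a1, Col6a1 and Col6a2 had log2 fold changes of -0.37, -0.34 and -0.32. Endoderm and mesoderm genes, 6 tested of 13, had 3 positive and 3 negative fold changes (median -0.01) and sums of 53.5 to 65.6 and 59.6 to 68.6 FPKM, mostly Foxa2, which the floor plate also expresses, and Cxcr4. The part of these cell markers in the fold changes of the 8 genes was not tested.

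The other genes of the pathway were read from lists chosen by function, beside 5197 positive (42.6%) and 7002 negative fold changes over all tested genes. None of their genes passed at an adjusted p under 0.05. Of the genes that process, uridylate or degrade let-7 precursors, 16 of 17 were tested, with 6 positive and 10 negative fold changes (median -0.05, and 0.10 without control replicate 1) and 0 at an unadjusted p under 0.05. Drosha, the nuclease that cuts primary microRNAs, was at 43.7 ± 4.28 FPKM in the control libraries and 52.2 ± 4.80 FPKM in Setd5sh (SD, n = 3 each; log2 fold change 0.25). Tut7, a terminal uridylyltransferase that acts on let-7 precursors, was at 4.49, 2.82 and 2.52 FPKM in the control libraries and 2.52, 2.67 and 2.37 FPKM in Setd5sh (log2 fold change -0.40), and the poly(A) polymerase gene Tent2 had a log2 fold change of -0.39. For both genes control replicate 1 was the highest library, as for Lin28b, and without it Tut7 was at -0.05 and Tent2 at -0.08.

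Of the genes of the silencing complex that let-7 guides, 9 of 10 were tested, with 4 positive and 5 negative fold changes (median -0.15). Without control replicate 1 that median was 0.16. Ago3 was at 2.83, 1.11 and 0.77 FPKM in the control libraries and 0.80, 0.89 and 0.78 FPKM in Setd5sh (log2 fold change -0.97, SE 0.46, edgeR adjusted p = 0.995), again with control replicate 1 apart, and was -0.17 without that library. Ago1 had a log2 fold change of 0.17 (0.07 without Setd5sh replicate 1) and Tnrc6b, a scaffold of the complex, of -0.28, which without control replicate 1 was 0.18.

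Of the known let-7 targets outside the 8 genes, 24 of 25 were tested, with 17 positive and 7 negative fold changes and a median of 0.07 (0.02 without Setd5sh replicate 3 and 0.12 without control replicate 1 or Setd5sh replicate 2). Myc, a growth-promoting transcription factor, was at 6.36, 7.43 and 11.08 FPKM in the control libraries and at 13.74, 10.29 and 16.94 FPKM in Setd5sh (log2 fold change 0.72, SE 0.27, edgeR adjusted p = 0.995). The cyclin D1 gene Ccnd1 was at 29.75, 22.62 and 25.20 FPKM in the control libraries and at 47.80, 30.59 and 33.36 FPKM in Setd5sh (log2 fold change 0.52, SE 0.22, edgeR adjusted p = 0.995). These 2 of 24 genes were under 0.05 unadjusted, against 1.22% of all tested genes. When each library was left out in turn, Ccnd1 was under 0.05 unadjusted in 2 of 6 fits, with a lowest log2 fold change of 0.28 without Setd5sh replicate 1, and Myc in 3 of 6, with a lowest value of 0.53 without Setd5sh replicate 3. All 3 Setd5sh libraries were above all 3 controls for Ccnd1, as in 3.07% of tested genes, while for Myc control replicate 3 was above Setd5sh replicate 2. Plagl2, at 0.32, did not reach an unadjusted p under 0.05 and was at 0.19 without Setd5sh replicate 3.

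Genes of early progenitor timing outside the 8 had 7 positive and 2 negative fold changes among 9 tested of 11 (median 0.04), and genes of late timing and gliogenesis had 3 positive and 7 negative among 10 tested of 15 (median -0.13). Neither list held a gene at an unadjusted p under 0.05. Without control replicate 1 the medians were 0.09 and 0.32, so the sign of the late list turned with that library, as it did without Setd5sh replicate 2, to 0.07. In the early list, Mycn was at 39.8 ± 2.10 and 43.4 ± 3.31 FPKM in the control libraries and Setd5sh (SD, n = 3 each), Crabp1, a retinoic acid binding protein gene, had a log2 fold change of 0.27 and the stem cell gene Dppa4 of -0.65. Crabp1 was at 0.08 without Setd5sh replicate 1 and at 0.12 without control replicate 2, and Dppa4 ranged from -1.40 without Setd5sh replicate 2 to -0.32 without Setd5sh replicate 1. In the late list, Pou3f3 had a log2 fold change of 0.41 (0.17 without Setd5sh replicate 1 and 0.79 without control replicate 1), Zfhx2 of 0.21 (0.11 to 0.37 when each library was left out) and Pou2f1 of -0.35, which without control replicate 1 was 0.07.

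**Figure D5:**
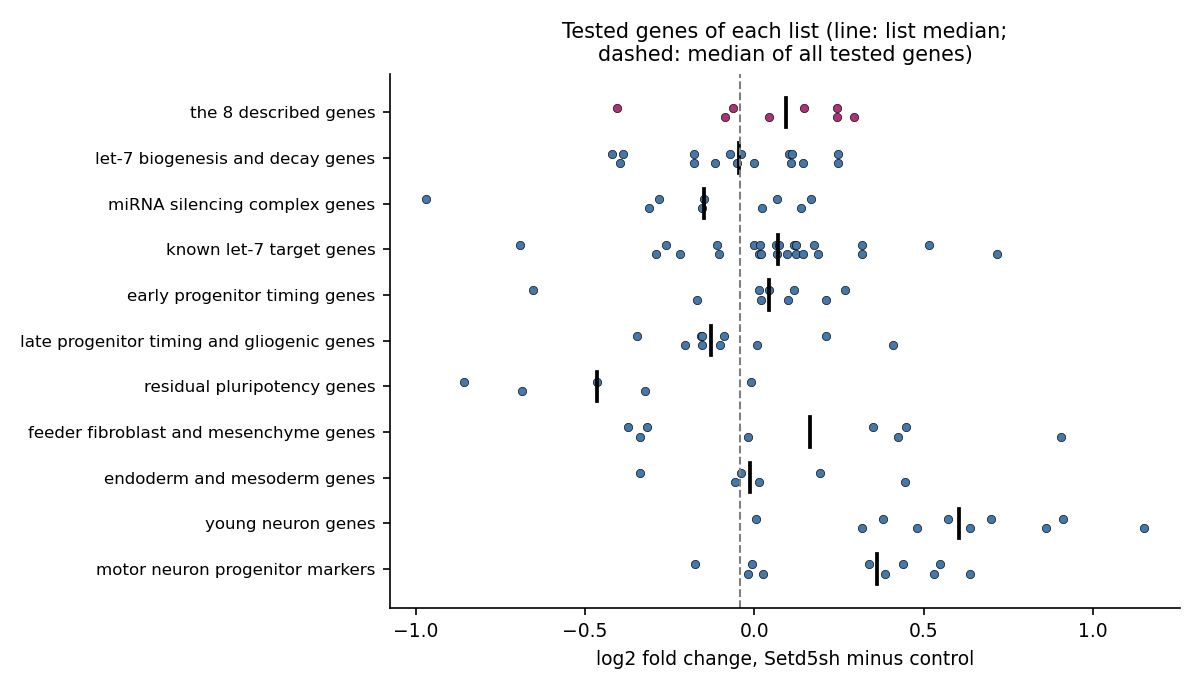
Log2 fold change, Setd5sh minus control, of each tested gene in each list, with the 8 described genes at the top. Points are genes, black lines list medians and the dashed line the median of all tested genes, -0.04. The 8 genes span -0.41 to 0.30 with a median of 0.09, and the young neuron genes are all above 0, with a median of 0.60.

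Across all tested genes, the fold change was also set beside the number of let-7 matches as a description. The median log2 fold change was -0.03 in 9631 genes with no match, -0.05 in 1002 genes with 1 match, -0.02 in 117 with 2, 0.03 in 13 with 3 and -0.11 in the 10 with 4 or more, against -0.03 over all 10773. Within classes, the quartiles were -0.21 and 0.10 for genes without a match and -0.25 and 0.09 for genes with 1. Whether the class medians differ was not tested. For all genes with a match the median was -0.04, and 0.02 without control replicate 1. The 10 genes with 4 or more matches include the 4 described genes with 4 matches, so that class is not independent of them. These 4 had log2 fold changes of 0.30 for Hmga2, 0.24 for Igf2bp1, -0.09 for Trim71 and -0.41 for Lin28b. Genes with the same number of matches thus lay on both sides of 0.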

How the data were processed

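The authors deposited a table with a raw read count per gene and library, the exonic length of each gene, and FPKM values. Per the submitters' processing notes, the mm10 build, HISAT2, SAMtools, HTSeq and DESeq2 were used, with no roles or versions. The annotation release and strand setting were not given in the sources used here. These deposited FPKM equal count over exonic length and column total to within 0.005. Groups and replicate numbers came from the sample titles.

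Counts were tested with edgeR 4.0.16 (quasi-likelihood test, TMM scaling, no block) in R 4.3.3 over the 12199 genes with a mean deposited FPKM of at least 1, with Benjamini-Hochberg adjustment, two-sided, at 0.05. Fold changes are Setd5sh minus control. Exact permutation tests used the 6 FPKM values or log2 ratios. Alternatives were other scalings and filters, DESeq2 1.42.0, limma 3.58.1 on log2(FPKM + 1) and log2(FPKM + 0.1), the replicate block, that block with each library's trends on GC content and length removed (lowess span 0.3), and leaving out each library. Fits with trends removed and no block, with the block and without pair 1, DESeq2 with the block, and sums and shares without control replicate 1 were added after the data were seen. The scripts were tested on simulated data.

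The 8 genes and the lists were chosen with earlier results of these data known. Named genes are the 8, Setd5, up to 3 tested genes of smallest p per pathway list, the 2 of highest mean FPKM per marker list, and the 3 most correlated with Lin28a and with Lin28b. Postn, Dcn, Lum, Col1a1, Col1a2, Col6a1, Col6a2, Twist1, Acta2, Elavl4, Dcx, Stmn2, Map2, Olig1 and Neurog2 were named after their values were seen. Symbols, GC content and 3′ UTRs came from GENCODE M21, which matched 55140 of 55400 identifiers (99.5%), and microRNA sequences from RefSeq on GRCm38.p6. Both groups share the replicate numbers 1 to 3. Across genes, same-numbered libraries deviated from their group means together (r = 0.180, 0.634 and 0.149). Each exceeds 0.1, a bound set by choice, so a number was read as marking a pair in the pair counts and the blocked fits. No label states this reading. The main edgeR fit and the permutation tests did not use it. Control replicate 1 also correlated at 0.143 with Setd5sh replicate 3, close to the values of pairs 1 and 3, so only pair 2 stood out. No 2 libraries of a group agreed within sampling noise (chi-square per degree of freedom at least 22.5).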

Additional observations from a re-analysis of the deposited data

How the results depend on the processing

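None of the 8 genes passed at an adjusted p under 0.05 in any of the 18 alternatives, and the lowest adjusted p of any of them was 0.416. The replicate block turned the sign of none of the 8 (Hmga2 0.30, Lin28b -0.26) and changed no call, with 0 tested genes passing and 328 at an unadjusted p under 0.05 against 149. The number of tested genes passing was 73 with no filter (18 higher, 55 lower), 70 with the replicate block and without pair 1 (30 higher, 40 lower), and 2 in DESeq2 with the replicate block. Signs turned in several results. Lin28a was -0.078 with the block and without pair 1, and Lin28b was 0.020 in the replicate block fit without GC and length trends, 0.017 without trends and without a block, and 0.14 with the block and without pair 1. With no filter Igf2bp2 was 0.0076, Fn1 0.044 and Sox2 0.044, and with filterByExpr Fn1 was 0.034 and Sox2 0.034. Mycn was -0.0041 with trends removed and no block, and Tnrc6b 0.17 with the block and without pair 1. Leaving out each library in turn gave ranges of -0.081 to 0.14 for Lin28a, -0.66 to 0.23 for Lin28b, -0.17 to 0.027 for Igf2bp2, -0.16 to 0.24 for Cxcr4, -1.05 to 0.51 for Dppa5a, -0.047 to 0.029 for Fn1, -0.59 to 0.072 for Pou2f1, -2.73 to 0.28 for Pou5f1, -0.053 to 0.044 for Sox2 and -0.57 to 0.18 for Tnrc6b. For the log2 differences of ratios they were -0.30 to 0.68 for Lin28a to Lin28b, -0.39 to 0.25 for Hmga1 to Hmga2 and -0.039 to 0.24 for Igf2bp1 to Igf2bp3. Hmga1, Hmga2, Igf2bp1 and Igf2bp3 were positive and Trim71 negative in all 18 alternatives. Median fold changes of the endoderm and mesoderm genes ranged from -0.12 to 0.17 and of the feeder and mesenchyme genes from 0.07 to 0.17 when each library was left out. Requiring A after the let-7 match left 405 tested genes. Beyond the settings' own construction (fewer or more genes, fewer libraries, trends removed), the cause of these changes was not tested. The 3 libraries a group, and the distance of control replicate 1 from the others, limit what can be told apart.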
